A study of Mus musculus with 12 samples.

Results

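The genes of de novo lipogenesis, the pathway that makes fatty acids from sugar-derived carbon, were followed in whole mouse liver. They comprise 10 genes chosen by name: the enzymes Fasn, Acaca, Acacb, Acly, Elovl6 and Scd1, the transcription factors Srebf1 and Mlxipl, the lipogenic factor Thrsp and the lipid droplet protein Pnpla3. All 10 were found by symbol among the 22381 genes that were not listed at 0 in all libraries, of 45792 listed. All 10 passed the filter on low values, which kept 12637 genes. The values are the authors' deposited log2 expression values, so a difference of 1 is a doubling.

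RNA had been sequenced from 12 liver libraries of female C57BL/6 mice, in 4 groups of 3. HFHS_Curcumin livers came from mice on a high fat, high sugar diet, used here to bring about steatohepatitis, that received liposomes carrying curcumin, a plant polyphenol. HFHS_Calcitriol livers came from mice on the same diet that received liposomes carrying calcitriol, the active form of vitamin D. Both kinds of liposome were injected into the vein at weeks 12 and 13 of a diet of 14 weeks, and the livers were collected 2 weeks after the earlier of these injections. HFHS livers came from untreated mice on the diet. The fourth group is titled CNT. The diet given in its labels is the one given for HFHS livers, and nothing in the labels says how CNT and HFHS mice differed. A group given liposomes without drug was not analysed here, so an effect of the liposome and one of its cargo cannot be told apart. Nothing says whether the replicates of a group are different animals, and the spread behind each p-value may therefore be technical.

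In this pathway ATP citrate lyase (Acly) cuts citrate exported from mitochondria into cytosolic acetyl-CoA. Acetyl-CoA carboxylases make malonyl-CoA from it: the product of Acaca feeds synthesis, and that of Acacb, made at the mitochondrial surface, also restrains fatty acid oxidation. Fatty acid synthase (Fasn) builds palmitate, which Elovl6 lengthens and stearoyl-CoA desaturase 1 (Scd1) desaturates. In liver, insulin acts on these genes through SREBP-1c, encoded by Srebf1, and glucose acts on them through ChREBP, encoded by Mlxipl.

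Libraries of a group were not equally alike. HFHS replicates 1 and 3 stood apart from all others, at 32.8 and 28.4 on the first principal component, while HFHS replicate 2 was at -3.1. The summed linear level of 10 stellate cell and fibroblast markers was 1.42e+04 and 1.29e+04 in those libraries and 6.77e+03 in HFHS replicate 2, against 5.55e+03 to 6.7e+03 in CNT livers. HFHS replicate 3 also carried adipocyte transcripts: Cfd was at 9.18 and Fabp4 at 9.22 there, while Cfd was at 3.35 to 4.32 and Fabp4 at 6.28 to 7.09 in the other libraries. In Cfd and Adipoq, HFHS_Calcitriol replicate 1 came next, at 4.32 and 3.07. Replicates 2 and 3 of its group read 3.46 and 3.40 in Cfd and 2.38 and 2.37 in Adipoq. Adipocytes make the lipogenic enzymes too. Of 11 adipocyte markers, Adipoq, Plin1, Lep, Retn and Cidea were under the filter, and the sum of the list rests mostly on Pck1 and Cd36, genes that hepatocytes also express. That sum was 4.93e+04 to 5.35e+04 in HFHS_Curcumin livers, 5.11e+04 to 7.78e+04 in HFHS_Calcitriol livers, 4.76e+04 to 6.94e+04 in HFHS livers and 6.54e+04 to 7.69e+04 in CNT livers. All 14 hepatocyte markers passed the filter, as the labelled tissue requires.

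The promoter-proximal DNA of members that passed the test in at least 1 comparison is shown where the RefSeq window (GRCm38.p6) reaches the annotated start of the gene, since the results turn on these genes. Each stretch ends at the base before the gene and reads 5′ to 3′ on the strand of the gene. Capitals mark CCAAT boxes (CCAAT or ATTGG) and GC boxes (GGGCGG or CCGCCC), the elements read by NF-Y and Sp1. In Fasn the last pair of CCAAT matches share bases. The stretches lie at chr11:120824548-120824797 (minus strand) for Fasn, chr11:100528001-100528250 (minus strand) for Acly, chr3:129532136-129532354 (plus strand) for Elovl6 and chr11:60222582-60222831 (minus strand) for Srebf1. Srebf1 also has windows at internal starts, chr11:60210472-60210721 and chr11:60220628-60220877, which are not shown. Which of its starts gives the SREBP-1c transcript was not determined, so the stretch shown may not be the SREBP-1c promoter.
Fasn: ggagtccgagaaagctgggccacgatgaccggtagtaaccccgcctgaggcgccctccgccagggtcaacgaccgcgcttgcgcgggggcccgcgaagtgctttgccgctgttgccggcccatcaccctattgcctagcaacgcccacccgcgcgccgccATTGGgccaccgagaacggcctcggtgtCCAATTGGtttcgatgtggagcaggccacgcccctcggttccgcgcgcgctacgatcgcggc
Acly: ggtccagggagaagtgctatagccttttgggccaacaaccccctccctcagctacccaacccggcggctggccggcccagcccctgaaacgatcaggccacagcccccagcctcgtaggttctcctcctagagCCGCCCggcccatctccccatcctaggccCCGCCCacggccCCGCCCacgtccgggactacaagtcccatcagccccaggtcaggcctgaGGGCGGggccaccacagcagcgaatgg
Elovl6: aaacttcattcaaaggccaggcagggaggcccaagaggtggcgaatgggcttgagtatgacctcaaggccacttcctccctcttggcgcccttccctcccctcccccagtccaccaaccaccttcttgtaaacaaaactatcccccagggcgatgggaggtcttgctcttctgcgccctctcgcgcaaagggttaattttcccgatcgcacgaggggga
Srebf1: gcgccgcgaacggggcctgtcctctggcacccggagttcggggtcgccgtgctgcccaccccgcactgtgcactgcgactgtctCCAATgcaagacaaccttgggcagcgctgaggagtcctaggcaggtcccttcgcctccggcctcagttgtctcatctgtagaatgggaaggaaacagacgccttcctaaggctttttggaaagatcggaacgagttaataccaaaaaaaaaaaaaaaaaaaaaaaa

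RefSeq windows were matched for 9 of the 10 genes, all but Scd1, and gave 12 windows of 250 bases upstream of a start. Both strands were searched. Srebf1 has 3 of these windows and Mlxipl 2, so matches are counted by window. The windows of Acaca (chr11:84195188-84195437) and Acacb (chr5:114165268-114165517) lie inside these genes, downstream of their annotated starts. Their matches, or lack of them, therefore do not describe the DNA upstream of those starts. For the internal windows of Srebf1 and the window of Pnpla3, the bases after the start were not found in a transcript. A CCAAT box was present in 7 of the 12 windows (of Fasn, Acacb, Srebf1, Mlxipl, Thrsp and Pnpla3) and in 33.8% of all 32851 windows of that length. A GC box was present in 5 of the 12 (of Acly, Srebf1, Mlxipl and Pnpla3) and in 32.7% of all windows. The Acly window held 4 GC boxes, which begin 117, 88, 76 and 27 bases upstream of the start. The sterol response element TCACNCCAC was found in 1 of the 12 windows, of Mlxipl, beginning 136 bases upstream of its internal start, and in 1.05% of windows. The E-box CACGTG was found in 1 of the 12, the other window of Mlxipl, and in 6.02% of windows, and the LXR direct repeat (AGGTCA, 4 free bases, AGGTCA) in none of the 12 and in 0.0152% of windows. Only these exact letters were searched, and a run this rare would seldom be met in 12 windows. Its absence therefore does not show that LXR elements with other letters are lacking. A match describes the letters and is not a binding site.

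Mean levels of the synthetic enzymes Fasn, Acaca, Acly, Elovl6 and Scd1 were lowest in HFHS_Calcitriol livers, next lowest in HFHS_Curcumin livers, higher in HFHS livers and highest in CNT livers. In each of the 5 the HFHS_Curcumin and HFHS_Calcitriol livers overlapped. Comparisons that share a group share its libraries and are not independent. Differences were tested with limma over all genes, with Benjamini-Hochberg adjustment and a threshold of 0.05.

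In HFHS_Calcitriol against CNT livers, 5 of the 10 genes fell (Fasn, Acaca, Acly, Elovl6 and Scd1) and none rose, where 2.27% of all genes tested fell and 1.77% rose. In HFHS_Curcumin against CNT livers, 4 fell (Fasn, Acaca, Acly and Elovl6) and none rose, where 1.91% of all genes fell and 1.6% rose. In HFHS against CNT livers, 4 fell (Fasn, Acaca, Elovl6 and Srebf1) and none rose, where 5.36% of all genes fell and 6.55% rose. The median difference over the 10 genes was -0.96 in HFHS_Calcitriol, -0.67 in HFHS_Curcumin and -0.61 in HFHS livers, each minus CNT, while the median over all genes tested was -0.004, -0.002 and -0.011. The count for HFHS against CNT livers rested on single libraries: it was 0 of 10 without HFHS replicate 1, without CNT replicate 1, without CNT replicate 2 or without both HFHS replicates 1 and 3, and 1 of 10 without HFHS replicate 3.

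Against untreated HFHS livers fewer genes passed. In HFHS_Calcitriol livers 1 of the 10 fell, Fasn, where 1.23% of all genes fell and 0.973% rose, and the median difference of the 10 was -0.46. In HFHS_Curcumin livers none of the 10 passed the test, where 0.301% of all genes did in either direction, and the median was -0.31. With the replicate number as a block, 242 genes passed there in place of 38, and none of the 10 was among them. Between HFHS_Curcumin and HFHS_Calcitriol livers none of the 10 passed, as 0% of all genes did by limma, with 1873 genes at an unadjusted p under 0.05. The median there was 0.23.

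Groups that did not overlap were more frequent than calls. HFHS_Calcitriol livers lay wholly below CNT livers in 8 of the 10 genes, against 17.4% of all genes. HFHS_Curcumin livers lay wholly below CNT livers in 6, against 12.7%, and HFHS livers wholly below CNT livers in 5, against 14.1%. HFHS_Calcitriol livers lay wholly below HFHS livers in 6, against 11.8%. Scd1 is counted among these 6 although its nearest libraries, HFHS_Calcitriol replicate 1 and HFHS replicate 3, read 15.190 and 15.193. HFHS_Calcitriol livers lay wholly above HFHS livers in 1, Mlxipl, against 12.6%. HFHS_Curcumin livers lay wholly below HFHS livers in 5, against 11.6%. HFHS_Curcumin livers lay wholly above HFHS_Calcitriol livers in 2, Acacb and Thrsp, against 14.9%. The counts of genes lying wholly above, 1 and 2 of the 10, are near the 12.6% and 14.9% of all genes. They therefore say little of the list.

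**Figure D1:**
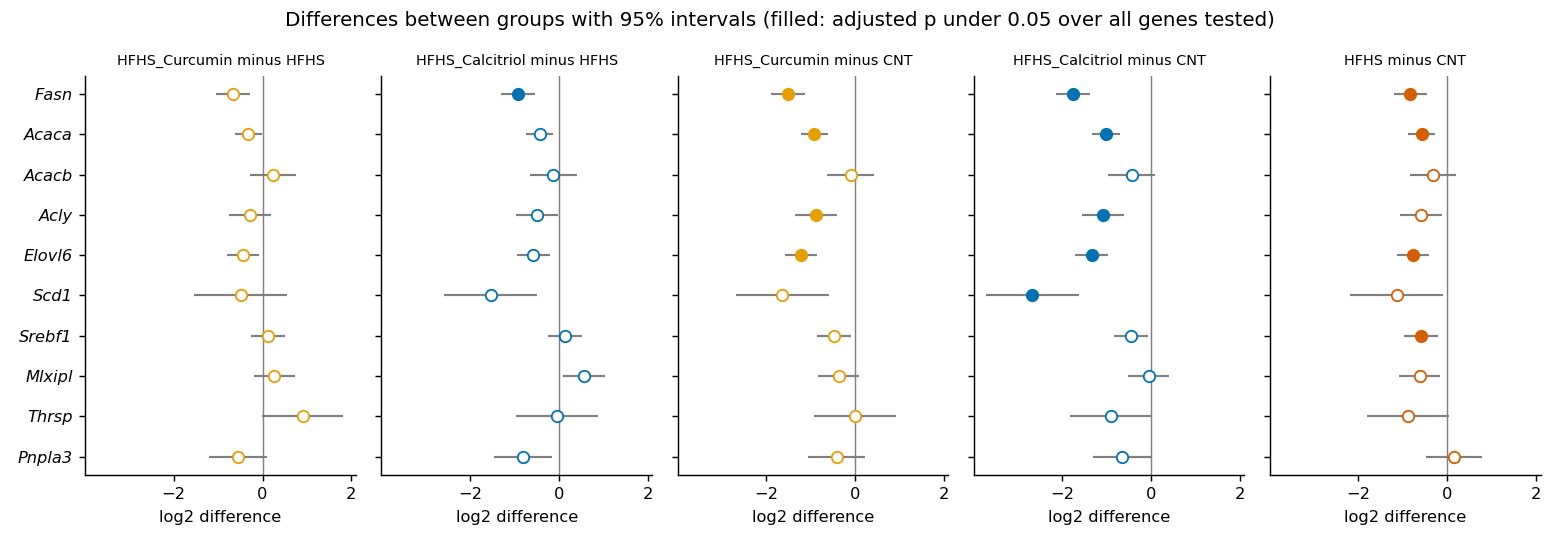
Log2 difference of each of the 10 genes in 5 comparisons (x axis, log2), with points for the estimate, bars for its 95% interval and filled points for an adjusted p under 0.05 over all 12637 genes tested. Fasn, Acaca and Elovl6 are filled in all 3 comparisons with CNT, and Fasn alone is filled against HFHS, in the HFHS_Calcitriol panel.

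Hepatocyte transcripts differed between some of the groups. The summed linear level of 14 hepatocyte markers was 1.8e+06 to 2.26e+06 in HFHS_Calcitriol livers and 1.89e+06 to 2.3e+06 in HFHS livers, both wholly below the 2.39e+06 to 2.62e+06 of CNT livers. It was 2.2e+06 to 2.65e+06 in HFHS_Curcumin livers, which overlapped CNT livers. Albumin (Alb) made up 45.8% of that sum in HFHS_Calcitriol replicate 3 and 56.2% to 66.4% in the other libraries. Without Alb the sum was 7.74e+05 to 9.73e+05 in HFHS_Calcitriol livers, which overlapped the 8.47e+05 to 1.04e+06 of CNT livers, and 6.87e+05 to 8.05e+05 in HFHS livers, wholly below CNT livers. In HFHS_Calcitriol against CNT livers none of the 14 markers passed by limma, and 11 were below 0 and 3 above (Hpx at 0.38, Fga at 0.29 and Fgb at 0.17). Between HFHS and CNT livers 3 of the 14 markers fell, 21.4% where 5.36% of all genes did, and all 14 were below 0: Cps1 fell by 0.84, Serpina1a fell by 0.55 and Apoh fell by 0.49 on the log2 scale. In the same comparison 4 of 10 stellate cell and 3 of 12 macrophage markers rose, 40% and 25% where 6.55% of all genes did. In HFHS_Calcitriol against CNT livers 3 of the 12 macrophage markers rose, where 1.77% of all genes did. The macrophage sum was 7.26e+03 to 9.04e+03 in HFHS_Curcumin livers, 8.48e+03 to 1.09e+04 in HFHS_Calcitriol livers, 7.16e+03 to 1.15e+04 in HFHS livers and 5.53e+03 to 7.37e+03 in CNT livers. The sum of 8 erythroid markers was 1.08e+04 to 1.18e+04 in HFHS_Curcumin livers and 1.12e+04 to 1.38e+04 in HFHS_Calcitriol livers, wholly above the 4.59e+03 to 8.5e+03 of HFHS livers and the 4.16e+03 to 8.91e+03 of CNT livers. The endothelial sum was 3.86e+03 to 4.58e+03 in HFHS_Curcumin livers, 6.09e+03 to 6.64e+03 in HFHS_Calcitriol livers, 4.37e+03 to 6.3e+03 in HFHS livers and 3.78e+03 to 5.94e+03 in CNT livers. The sum of 6 cholangiocyte markers was 1.13e+03 to 1.24e+03 in HFHS_Curcumin livers, 720 to 1.1e+03 in HFHS_Calcitriol livers, 1.13e+03 to 3.53e+03 in HFHS livers, highest in HFHS replicate 1, and 992 to 1.49e+03 in CNT livers. In HFHS against CNT livers all 5 cholangiocyte markers tested and all 8 lymphocyte and neutrophil markers tested were above 0, and none passed. The part of these cell types in the lower lipogenic values was not tested. In bulk RNA, fewer cells of a type and less RNA per cell cannot be told apart.

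Cytosolic acetyl-CoA supply comes first in the pathway. Acly (chromosome 11, 100476353 to 100528000, minus strand) read 11.42, 11.77 and 11.76 in HFHS_Curcumin livers and 11.46, 11.39 and 11.48 in HFHS_Calcitriol livers, against 11.81, 12.38 and 11.62 in HFHS livers and 12.91, 12.61 and 12.07 in CNT livers. All treated livers lay below all CNT livers, while HFHS replicate 2 lay among the CNT livers. Acly fell in HFHS_Calcitriol livers, to 47% of the CNT level (log2 difference -1.09 ± 0.22 SE, limma adjusted p = 0.0233). In HFHS_Curcumin livers it fell to 54.4% of the CNT level (-0.88 ± 0.22, limma adjusted p = 0.0499). That call sat at the threshold and was lost in 10 of 13 alternatives, with adjusted p up to 0.181. In HFHS_Calcitriol livers it was lost in 5 of 13, each time on leaving out 1 library. HFHS minus CNT was -0.59 ± 0.22 and did not pass (limma adjusted p = 0.0897), although it did without HFHS replicate 2 (-0.82, adjusted p = 0.011) or without CNT replicate 3 (-0.82, adjusted p = 0.0284). Without CNT replicate 1 it was -0.40 (limma adjusted p = 0.252). With HFHS replicates 1 and 3, which stood apart, left out, it was -0.15 (limma adjusted p = 0.892).

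Acetyl-CoA carboxylase 1, encoded by Acaca (chromosome 11, 84129672 to 84401651, plus strand), makes the malonyl-CoA used for synthesis. Its values were 8.86, 9.13 and 9.11 in HFHS_Curcumin livers and 8.93, 9.05 and 8.79 in HFHS_Calcitriol livers, against 9.24, 9.31 and 9.52 in HFHS livers and 10.28, 9.83 and 9.71 in CNT livers. The groups formed 3 tiers: both treated groups overlapped each other, every HFHS liver lay above them, and every CNT liver lay above every HFHS liver. Acaca fell to 49.4% of the CNT level in HFHS_Calcitriol livers (-1.02 ± 0.14, limma adjusted p = 0.00493), to 53.3% in HFHS_Curcumin livers (-0.91 ± 0.14, adjusted p = 0.00638) and to 66.8% in HFHS livers (-0.58 ± 0.14, adjusted p = 0.026). Against HFHS livers the differences of -0.43 ± 0.14 in HFHS_Calcitriol livers and -0.32 ± 0.14 in HFHS_Curcumin livers did not pass (limma adjusted p = 0.109 and 0.178).

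The second carboxylase, Acacb (chromosome 5, 114146535 to 114250761, plus strand), showed no such tiers. It read 11.32, 11.36 and 11.46 in HFHS_Curcumin livers and 11.25, 10.92 and 10.93 in HFHS_Calcitriol livers, against 10.88, 11.64 and 10.93 in HFHS livers and 11.93, 11.54 and 10.96 in CNT livers. HFHS and CNT livers each spread over most of the range, and the HFHS_Curcumin livers were the tightest, with an SD of 0.07. Acacb passed the test in none of the 6 comparisons, with limma adjusted p from 0.285 to 0.877. The 95% interval of HFHS_Calcitriol minus CNT ran from -0.97 to 0.08, which leaves room for a fall of the size seen in Acly in HFHS_Curcumin livers.

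Fasn (chromosome 11, 120805846 to 120824547, minus strand) encodes the multifunctional enzyme that carries out the steps of palmitate synthesis, and it gave the smallest adjusted p of the 10 genes in each of the comparisons with CNT. It read 11.81, 12.18 and 12.21 in HFHS_Curcumin livers and 11.95, 11.91 and 11.59 in HFHS_Calcitriol livers, against 12.48, 12.96 and 12.77 in HFHS livers and 13.86, 13.54 and 13.31 in CNT livers. No HFHS liver overlapped a treated liver or a CNT liver, and both treated groups overlapped each other. Fasn fell to 29.7% of the CNT level in HFHS_Calcitriol livers (-1.75 ± 0.17, limma adjusted p = 0.000521) and to 35.3% in HFHS_Curcumin livers (-1.50 ± 0.17, adjusted p = 0.00123). In HFHS livers it fell to 56.2% (-0.83 ± 0.17, adjusted p = 0.0177). Fasn was the gene that also passed against untreated HFHS livers: in HFHS_Calcitriol livers it fell to 52.9% of the HFHS level (-0.92 ± 0.17, limma adjusted p = 0.0297). In HFHS_Curcumin livers the difference of -0.67 ± 0.17 had a 95% interval from -1.05 to -0.29 and missed the threshold (limma adjusted p = 0.0724). HFHS_Curcumin minus HFHS_Calcitriol was 0.25 ± 0.17, with an interval from -0.13 to 0.63.

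The Fasn falls differed in how firmly they stood. Against CNT, both treated groups kept the call in all 13 alternatives, with limma adjusted p no higher than 0.0102 in HFHS_Curcumin livers. The call between HFHS_Calcitriol and HFHS livers was lost in 5 of 14 alternatives, among them leaving out HFHS_Calcitriol replicate 2 (-0.97, adjusted p = 0.103), HFHS_Calcitriol replicate 3 (-0.80, adjusted p = 0.126) or HFHS replicate 3 (-0.90, adjusted p = 0.0725). The call between HFHS and CNT livers was lost in 6 of 14. Between HFHS_Curcumin and HFHS livers Fasn passed without HFHS replicate 2 (-0.56, adjusted p = 0.0406).

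**Figure D2:**
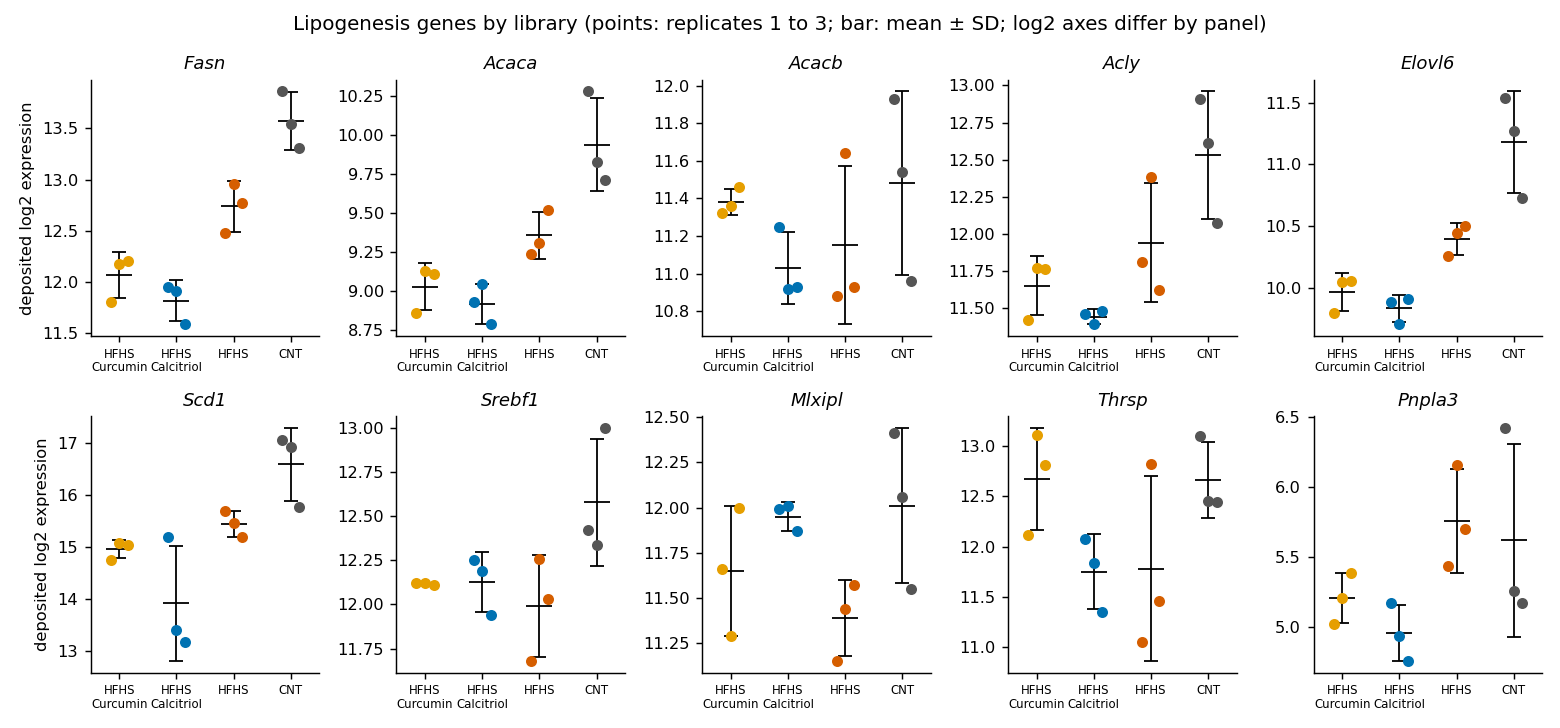
Deposited log2 expression (y axis, a separate range in each panel) of the 10 genes in each library, with coloured points for replicates 1 to 3 of each group and black bars for the mean ± SD. HFHS livers sit above both treated groups and below CNT livers with no overlap in Fasn, Acaca and Elovl6, while Thrsp and Acacb spread widely within HFHS livers. Scd1 has the same order, but HFHS_Calcitriol replicate 1 (15.190) is nearly level with HFHS replicate 3 (15.193).

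Elovl6 (chromosome 3, 129532355 to 129638495, plus strand), the elongase that turns palmitate into stearate, had the same tiers as Acaca. Its values were 9.80, 10.05 and 10.06 in HFHS_Curcumin livers and 9.89, 9.71 and 9.91 in HFHS_Calcitriol livers, against 10.26, 10.45 and 10.50 in HFHS livers and 11.54, 11.27 and 10.73 in CNT livers. CNT replicate 3 was the closest of its group to the HFHS livers. Elovl6 fell to 39.4% of the CNT level in HFHS_Calcitriol livers (-1.34 ± 0.17, limma adjusted p = 0.00317), to 43.1% in HFHS_Curcumin livers (-1.21 ± 0.17, adjusted p = 0.00387) and to 58.4% in HFHS livers (-0.78 ± 0.17, adjusted p = 0.02). Against HFHS livers the difference was -0.57 ± 0.17 in HFHS_Calcitriol livers and -0.44 ± 0.17 in HFHS_Curcumin livers, and neither passed (limma adjusted p = 0.0923 and 0.146).

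Scd1 (chromosome 19, 44394455 to 44407879, minus strand) puts the double bond into stearate and palmitate, and had the widest range of the 10 genes. It read 14.76, 15.07 and 15.05 in HFHS_Curcumin livers and 15.19, 13.40 and 13.17 in HFHS_Calcitriol livers, against 15.69, 15.46 and 15.19 in HFHS livers and 17.06, 16.92 and 15.78 in CNT livers. HFHS_Calcitriol replicate 1 was level with HFHS replicate 3, while the other pair of HFHS_Calcitriol livers lay far below every other library. After HFHS replicate 3, HFHS_Calcitriol replicate 1 also had the highest Cfd and Adipoq values. The part of adipocyte transcripts in its Scd1 value was not tested. Scd1 fell to 15.7% of the CNT level in HFHS_Calcitriol livers (-2.67 ± 0.47, limma adjusted p = 0.0186), the largest difference of any of the 10 genes in any of the 6 comparisons. That call was lost in 5 of 13 alternatives, 4 of them on leaving out 1 library, with values from -2.50 to -2.29. Scd1 was at 32.4% of the CNT level in HFHS_Curcumin livers (-1.63 ± 0.47, limma adjusted p = 0.0898) and at 45.5% in HFHS livers (-1.14 ± 0.47, adjusted p = 0.127), without passing. HFHS_Calcitriol minus HFHS was -1.53 ± 0.47 (limma adjusted p = 0.105), which passed only without HFHS_Calcitriol replicate 1 (-2.16, adjusted p = 0.0185). HFHS_Curcumin minus HFHS_Calcitriol was 1.04 ± 0.47, with a limma adjusted p of 0.337.

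The transcription factors that act on these enzymes did not show the same order of groups. Srebf1 (chromosome 11, 60199089 to 60222581, minus strand) read 12.12, 12.12 and 12.11 in HFHS_Curcumin livers and 12.25, 12.19 and 11.94 in HFHS_Calcitriol livers, against 11.68, 12.26 and 12.03 in HFHS livers and 12.42, 12.34 and 13.00 in CNT livers. CNT livers lay above all others, and the other groups overlapped. Srebf1 fell to 66.2% of the CNT level in HFHS livers (-0.59 ± 0.18, limma adjusted p = 0.048). That call was lost in 10 of 14 alternatives, among them the one without CNT replicate 3, its highest library (-0.39, adjusted p = 0.109), and the one with the replicate block (-0.59, adjusted p = 0.054). Differences from CNT were -0.45 ± 0.18 in HFHS_Calcitriol livers and -0.47 ± 0.18 in HFHS_Curcumin livers and did not pass (limma adjusted p = 0.151 and 0.176). Differences from HFHS livers were 0.14 ± 0.18 in HFHS_Calcitriol livers and 0.12 ± 0.18 in HFHS_Curcumin livers. The tables give 1 value per gene, so the transcripts for SREBP-1a and SREBP-1c are not separated.

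Mlxipl (chromosome 5, 135089890 to 135138382, plus strand) read 11.66, 11.29 and 12.00 in HFHS_Curcumin livers and 11.99, 12.01 and 11.87 in HFHS_Calcitriol livers, against 11.15, 11.44 and 11.57 in HFHS livers and 12.41, 12.06 and 11.55 in CNT livers. All HFHS_Calcitriol livers lay above all HFHS livers, and every other pair of groups overlapped. None of the 6 comparisons passed. HFHS_Calcitriol minus HFHS was 0.57 ± 0.21 (limma adjusted p = 0.155) and HFHS_Calcitriol minus CNT was -0.05 ± 0.21 (adjusted p = 0.905). HFHS minus CNT was -0.62 ± 0.21 (limma adjusted p = 0.072) and passed only without CNT replicate 3 (-0.85, adjusted p = 0.0232).

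Thrsp (chromosome 7, 97412938 to 97417730, minus strand) encodes Spot 14, a small protein induced by thyroid hormone and carbohydrate feeding that promotes lipogenesis. It read 12.11, 13.11 and 12.81 in HFHS_Curcumin livers and 12.07, 11.84 and 11.35 in HFHS_Calcitriol livers, against 11.05, 12.82 and 11.46 in HFHS livers and 13.10, 12.45 and 12.44 in CNT livers. HFHS replicate 2 lay well above the other pair of its group, and all HFHS_Curcumin livers lay above all HFHS_Calcitriol livers. HFHS_Curcumin livers averaged 12.67 ± 0.51 and CNT livers 12.66 ± 0.38 (SD, n = 3 each). That difference of 0.01 ± 0.42 had a 95% interval from -0.91 to 0.93. Thrsp passed in none of the comparisons. HFHS_Curcumin minus HFHS was 0.90 ± 0.42 (limma adjusted p = 0.213), and without HFHS replicate 2 it was 1.42 and passed (adjusted p = 0.0136). HFHS minus CNT was -0.88 ± 0.42 (limma adjusted p = 0.171), and without HFHS replicate 2 it was -1.40 and passed (adjusted p = 0.0115). Without HFHS replicates 1 and 3, which stood apart, both signs turned: HFHS_Curcumin minus HFHS was -0.14 and HFHS minus CNT was 0.16 (limma adjusted p = 0.999 and 0.94).

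Pnpla3 (chromosome 15, 84167837 to 84187236, plus strand) encodes a lipid droplet protein whose gene is a target of SREBP-1c. It read 5.02, 5.21 and 5.39 in HFHS_Curcumin livers and 5.17, 4.94 and 4.76 in HFHS_Calcitriol livers, against 5.44, 6.16 and 5.70 in HFHS livers and 6.42, 5.26 and 5.17 in CNT livers. HFHS livers lay above all treated livers, and CNT replicate 1 lay far above the other pair of its group. No comparison passed. The difference was -0.80 ± 0.29 for HFHS_Calcitriol minus HFHS (limma adjusted p = 0.148) and -0.56 ± 0.29 for HFHS_Curcumin minus HFHS (adjusted p = 0.256). At this low level the deposited scale probably understates fold changes.

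Per kilobase of exon, Scd1 had the highest level of the 10 in every group, at 12.67 in HFHS_Curcumin livers, 11.63 in HFHS_Calcitriol livers, 13.16 in HFHS livers and 14.30 in CNT livers (log2 level per kilobase). Thrsp came next in each group, with levels of 10.62 to 11.54 on that scale. Acaca and Pnpla3 had the lowest levels, at 4.83 to 5.85 and 4.33 to 5.13. In CNT livers the levels of Acly, Fasn and Srebf1 were 10.13, 10.12 and 10.09 on that scale and differed by less than their spread between libraries.

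Some of these genes share their locus. Acaca, with a mean log2 value of 9.31 over the libraries, overlaps Gm11437 on the other strand (5.41), and Elovl6 (10.35) overlaps the antisense gene Gm35986 (4.94). Srebf1 (12.20) overlaps Rai1 on the other strand (7.21), and Mlxipl (11.75) overlaps the antisense gene Gm43500 (2.04). Whether counting used strand is not given in the sources used here, so reads of these partners cannot be told apart.

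Single libraries stood high or low in many of the genes at once. CNT replicate 1 was the highest of its group in 9 of the 10 genes and CNT replicate 3 the lowest in 9, the exception in both cases being Srebf1, which was highest in CNT replicate 3. HFHS replicate 1 was the lowest of its group in 8 genes and HFHS replicate 2 the highest in 6. Averaged over the 10 genes, the log2 deviation from the gene mean ran from -0.63 in HFHS_Calcitriol replicate 3 to 0.98 in CNT replicate 1. Every treated liver was below 0 on that average. HFHS livers were at -0.25, 0.27 and -0.08 and CNT livers at 0.98, 0.57 and 0.26, so HFHS replicate 2 was level with CNT replicate 3.

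**Figure D3:**
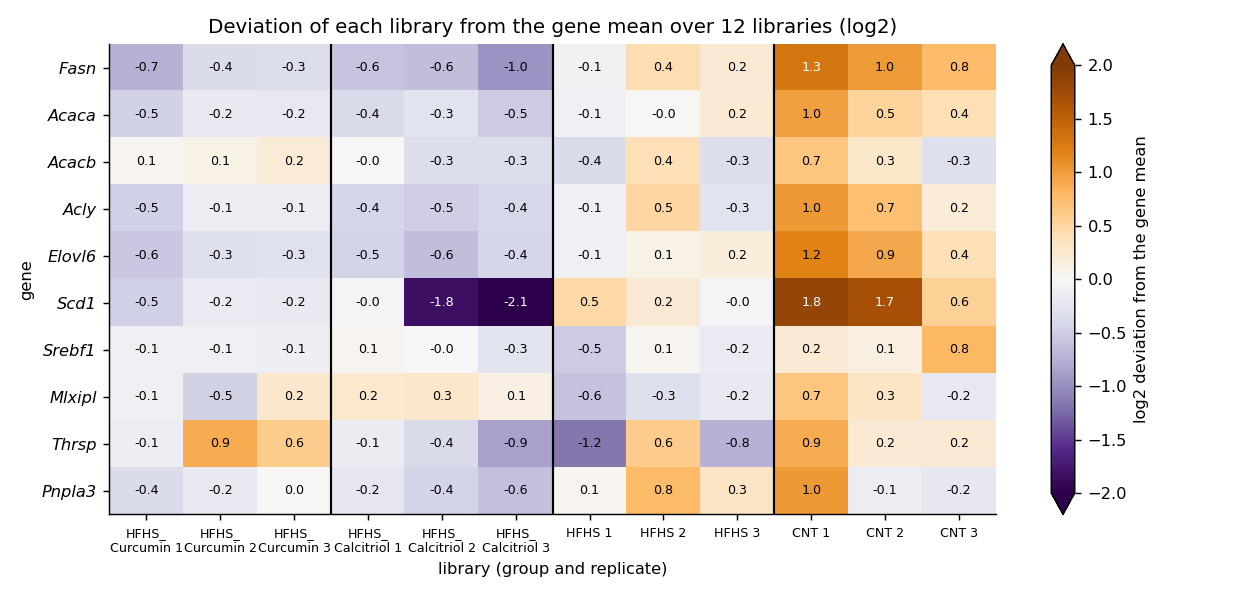
Deviation of each library (columns, by group and replicate) from the mean of each gene (rows) over 12 libraries, on the log2 scale, with orange above and purple below the mean. The CNT columns are orange in most rows and strongest in CNT replicate 1, while Scd1 is darkest purple in HFHS_Calcitriol replicates 2 and 3.

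The 10 genes did not follow their average equally. Over the 12 libraries, the Pearson r of a gene with the mean deviation of the 10 was 0.949 for Acly, 0.939 for Fasn, 0.928 for Elovl6, 0.919 for Acaca and 0.902 for Scd1. It was 0.760 for Acacb, 0.753 for Pnpla3, 0.659 for Thrsp, 0.537 for Srebf1 and 0.366 for Mlxipl, and each gene is itself part of the average. Among genes outside the set, those most like the average were Me1 (r = 0.955), Acss2 (r = 0.950), Cyb5r3 (r = 0.935), Cdk8 (r = 0.934) and Stau1 (r = 0.932). Me1, malic enzyme, makes NADPH used in fatty acid synthesis, and Acss2 makes cytosolic acetyl-CoA from acetate. Libraries of a group share their treatment, so group differences enter these values, which are descriptions without a test.

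The wider pathway was read from 6 lists of 62 other genes, all of which passed the filter. In HFHS_Calcitriol against CNT livers 7 of the 62 fell (11.3%, where 2.27% of all genes did) and none rose. Leaving out 1 library left 1 to 8 falls, 1 without HFHS_Calcitriol replicate 3 or CNT replicate 2. Mid1ip1, a partner of Thrsp that promotes assembly of acetyl-CoA carboxylase, fell by 1.09 ± 0.14 (limma adjusted p = 0.00317), and Acss2 fell by 1.09 ± 0.26 (adjusted p = 0.041). Me1 fell by 0.93 ± 0.16 (limma adjusted p = 0.0157), and Slc25a1, the mitochondrial citrate carrier, fell by 0.43 ± 0.10 (adjusted p = 0.0435). Insig1, which retains SREBP precursors in the endoplasmic reticulum and is itself an SREBP target, fell by 0.83. Scap, their escort to the Golgi, fell by 0.41, and the acyl-CoA synthetase gene Acsl3 fell by 0.37. The median of the 62 was -0.16.

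In HFHS_Curcumin against CNT livers 3 of the 62 rose and 4 fell (4.84% and 6.45%, where 1.6% and 1.91% of all genes did). Without CNT replicate 2, 1 rose and 1 fell. Elovl3, an elongase of longer chains, rose by 1.56 ± 0.24 (limma adjusted p = 0.00735), and Mogat1, a monoacylglycerol acyltransferase, rose by 0.89 ± 0.19 (adjusted p = 0.0277). Insig2, the second SREBP retention protein, rose by 0.76 ± 0.13 (limma adjusted p = 0.0105). Mid1ip1 fell by 0.87, Insig1 fell by 0.77, Acsl3 fell by 0.42 and Prkaa1, a catalytic subunit of AMP-activated kinase, fell by 0.28. Me1 and Acss2 differed by -0.52 ± 0.16 and -0.67 ± 0.26 and did not pass (limma adjusted p = 0.11 and 0.185). The median of the 62 was -0.04.

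In HFHS against CNT livers 2 of the 62 rose and 6 fell (3.23% and 9.68%). These shares lie near the 6.55% and 5.36% of all genes that rose and fell, so the counts say little of the list. Without HFHS replicate 1 none rose and 1 fell, and without HFHS replicates 1 and 3, 3 rose and none fell. After quantile normalization 9 rose and 4 fell. Insig2 rose by 0.44, and Nfya, a subunit of the CCAAT-binding factor NF-Y, rose by 0.36. Mid1ip1 fell by 0.85 ± 0.14 (limma adjusted p = 0.00932). Of the fructose genes, the transporter gene Slc2a5 fell by 0.78 and Khk, ketohexokinase, fell by 0.55. Scap fell by 0.45, Mlycd, whose product degrades malonyl-CoA, fell by 0.34, and Usf2, an E-box factor, fell by 0.29. The median of the 62 was -0.09. Against HFHS livers, 1 of the 62 passed in HFHS_Calcitriol livers: Pgd, which makes NADPH in the pentose phosphate pathway, fell by 0.56 ± 0.09 (limma adjusted p = 0.0179). That share of 1.61% is near the 1.23% of all genes that fell, so the count says little of the list. None of the 62 passed in HFHS_Curcumin against HFHS livers or in HFHS_Curcumin against HFHS_Calcitriol livers.

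Cholesterol synthesis and uptake genes, targets of the related factor SREBP-2, were read as a neighbouring list of 19. In HFHS_Calcitriol against CNT livers 12 of the 19 fell (63.2%, where 2.27% of all genes did), with a list median of -0.64: Pmvk, Mvd, Fdps, Fdft1, Sqle, Lss, Cyp51, Tm7sf2, Nsdhl, Sc5d, Dhcr7 and Stard4, by log2 differences from -0.95 (Mvd) to -0.58 (Stard4). That count was 1 without HFHS_Calcitriol replicate 3, 2 without HFHS_Calcitriol replicate 2 or CNT replicate 2, and 7 to 10 without each of the other libraries. In HFHS_Calcitriol against HFHS livers 11 fell (57.9%, where 1.23% of all genes did), with a list median of -0.67: Hmgcs1, Mvk, Pmvk, Mvd, Fdps, Fdft1, Lss, Cyp51, Nsdhl, Sc5d and Dhcr7, from -1.24 (Mvd) to -0.61 (Mvk). None of these calls was left with only the 2 groups in the fit, without HFHS_Calcitriol replicate 2 or without HFHS_Calcitriol replicate 3. The count was 3 without HFHS replicate 3 and 1 without HFHS replicates 1 and 3, while the list median lay between -0.90 and -0.57 in all 14 alternatives. In HFHS_Curcumin livers 2 fell against CNT (Lss and Sc5d, 10.5% where 1.91% of all genes fell). None passed against HFHS, where 0.301% of all genes did in either direction. The median was -0.39 in both comparisons. The falls against CNT were lost on leaving out any HFHS_Curcumin library or CNT replicate 1 or 2, and against HFHS the replicate block gave 6 falls. In HFHS against CNT livers 1 fell, Ebp, with 9 of the 19 above 0 and 10 below. That share of 5.26% is near the 5.36% of all genes that fell. Of the 10 lipogenesis genes 4 fell there, with a median of -0.61. Lss, lanosterol synthase, fell by 0.75 ± 0.12 in HFHS_Calcitriol livers and fell by 0.51 ± 0.12 in HFHS_Curcumin livers against CNT (limma adjusted p = 0.00806 and 0.0339). For HFHS minus CNT its difference was 0.06 ± 0.12.

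Of the lipid droplet coat genes, 3 of 9 tested rose in HFHS against CNT livers, where the lipogenesis genes that passed fell and 6.55% of all genes rose: Cidec rose by 2.30 ± 0.29, Plin4 by 1.49 ± 0.28 and Plin3 by 0.35 ± 0.09 (limma adjusted p = 0.00342, 0.0148 and 0.0292). In HFHS_Curcumin against CNT livers the same 3 genes rose, where 1.6% of all genes did, Plin4 by 1.88 ± 0.28, Cidec by 1.68 ± 0.29 and Plin3 by 0.39 ± 0.09. The count was 0 with only the 2 groups in the fit and 1 without HFHS replicate 1, HFHS replicate 3 or CNT replicate 2 for HFHS against CNT livers, and 1 without HFHS_Curcumin replicate 2 or 3 or CNT replicate 2 for HFHS_Curcumin against CNT livers. None passed in HFHS_Calcitriol against CNT livers. In HFHS_Calcitriol against HFHS livers 1 of the 9 fell, where 1.23% of all genes did: Cidec, by 1.63 ± 0.29 (limma adjusted p = 0.027). That call was lost without HFHS_Calcitriol replicate 2 or 3, without HFHS replicate 1, 3 or both and with only the 2 groups in the fit. Cidec and Plin4 are also adipocyte genes. HFHS replicate 3 is the library with the most adipocyte transcripts, followed in Cfd and Adipoq by HFHS_Calcitriol replicate 1. The part of those transcripts in these differences was not tested.

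**Figure D4:**
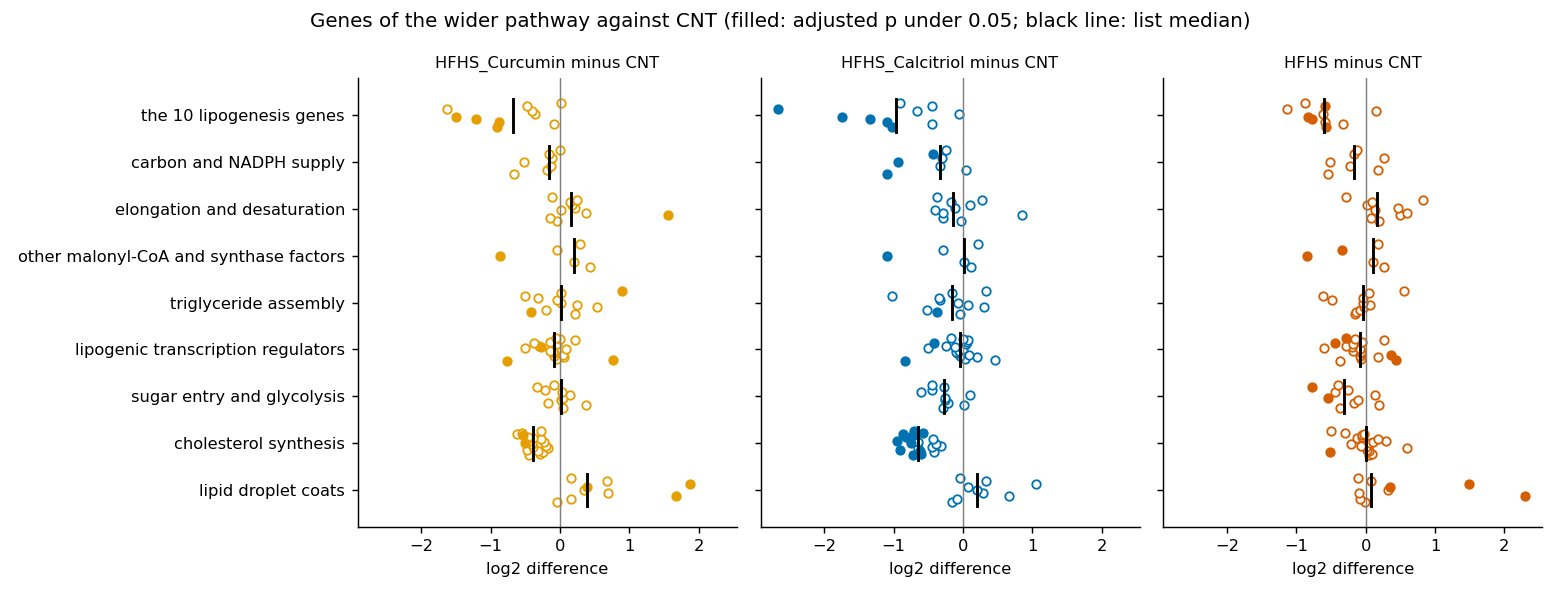
Log2 difference (x axis) of single genes, by list (rows), in HFHS_Curcumin, HFHS_Calcitriol and HFHS livers, each minus CNT, with filled points for an adjusted p under 0.05 and black lines for list medians. The 10 lipogenesis genes have their median at -0.67, -0.96 and -0.61 in these panels, and the cholesterol synthesis list has its median at -0.39 in HFHS_Curcumin livers, at -0.64 in HFHS_Calcitriol livers and close to 0 in HFHS livers.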

How the data were processed

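Whole-liver RNA was sequenced, and for each library the authors deposited a table with a log2 value per Ensembl gene. Per the submitters' processing notes, STAR 2.4.0d, DESeq2 1.8.1 and the build GRCm38 were used, in roles that the notes do not give here. The transformation is not given in the sources used here; each weak gene keeps near a floor of its own, as a regularized log2 scale does, and fold changes of weak genes are probably understated. The depth is unknown, and counting intervals are not given.

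Symbols and coordinates came from GENCODE M21 (GRCm38), and promoter sequences from RefSeq (GRCm38.p6). Genes reaching a log2 value of 3.32 in at least 3 libraries were tested with limma 3.58.1 in R 4.3.3: 4 group means over 12 libraries, empirical Bayes with trend and robust estimation, two-sided, Benjamini-Hochberg adjustment over 12637 genes, threshold 0.05. The median SE of a difference was 0.1. Levels per kilobase subtract the log2 exon length from the mean value. Cell type sums add linear values (2 to the power of the log2 value). Alternatives were the filter, quantile normalization, median centring, fits of 2 groups, a replicate block, plain moderation and leaving out libraries.

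The labels do not say what a replicate number marks. Deviations of same-numbered libraries correlated above 0.1 in all 3 pairs for HFHS_Curcumin with HFHS (0.16, 0.32 and 0.16) and HFHS_Calcitriol with CNT (0.21, 0.25 and 0.37). For HFHS_Curcumin with CNT the values were -0.08, -0.02 and -0.38. Whether the numbers mark pairs is therefore unknown. The main fit used no pairing, and the replicate block was run only as an alternative.

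The 10 genes and the other lists were chosen with earlier results of these data known. Some genes of the cholesterol list are not reported here, and its counts and medians leave them out. In each comparison the text names list genes that passed the test, or up to 3 others as values, and names the 5 genes outside the set with the highest Pearson r to the mean deviation.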

Additional observations from a re-analysis of the deposited data

How the results depend on the processing

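Over 13 or 14 alternatives per comparison, Fasn, Acaca and Elovl6 kept their calls in HFHS_Calcitriol and HFHS_Curcumin against CNT livers. The number of the 10 genes that passed was 0 for HFHS against CNT and 0 for HFHS_Calcitriol against HFHS livers with only the 2 groups in the fit or without HFHS replicates 1 and 3, and 1 (Fasn) for HFHS_Curcumin against HFHS livers after quantile normalization. Without HFHS replicates 1 and 3 the median for HFHS_Calcitriol against HFHS livers was -0.78; the lone HFHS library is then assumed to vary like the other groups. Leaving out 1 library gave 3 to 5 calls for HFHS_Calcitriol and for HFHS_Curcumin against CNT, 0 to 6 for HFHS against CNT, 0 to 2 for HFHS_Calcitriol and for HFHS_Curcumin against HFHS, and 0 for HFHS_Curcumin against HFHS_Calcitriol. HFHS_Curcumin against HFHS gave 2 without HFHS replicate 2 (Fasn and Thrsp). HFHS_Calcitriol against HFHS gave 2 without HFHS_Calcitriol replicate 1 (Fasn and Scd1) and 0 without HFHS_Calcitriol replicate 2, HFHS_Calcitriol replicate 3 or HFHS replicate 3. HFHS_Calcitriol against CNT gave 3 without HFHS_Calcitriol replicate 2 or 3 or CNT replicate 1 or 2. The causes were not tested.

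Over all genes the counts moved more, from 1505 to between 13 and 3717 for HFHS against CNT, 443 to between 94 and 949 for HFHS_Curcumin against CNT, 511 to between 73 and 627 for HFHS_Calcitriol against CNT, 38 to between 0 and 3207 for HFHS_Curcumin against HFHS, 279 to between 0 and 2194 for HFHS_Calcitriol against HFHS, and 0 to between 0 and 214 for HFHS_Curcumin against HFHS_Calcitriol.

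The replicate block left 242 genes called for HFHS_Curcumin against HFHS in place of 38. It ended the calls of Srebf1 in HFHS against CNT (-0.59, limma adjusted p = 0.054) and Acly in HFHS_Curcumin against CNT (-0.88, limma adjusted p = 0.0538), and no other call of the 10 genes.

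Signs turned only in genes that had not passed. After quantile normalization Pnpla3 in HFHS minus CNT was -0.01, Srebf1 in HFHS_Curcumin minus HFHS -0.07 and Mlxipl in HFHS_Calcitriol minus CNT 0.07. Without HFHS replicates 1 and 3, Acacb and Thrsp in HFHS minus CNT were both 0.16; in HFHS_Curcumin minus HFHS, Srebf1, Acacb and Thrsp were -0.14, -0.26 and -0.14; and Srebf1 in HFHS_Calcitriol minus HFHS was -0.13. On leaving out 1 library, differences with a turned sign ranged as follows over all leave-one-out fits: Pnpla3 in HFHS minus CNT from -0.07 to 0.55, Srebf1 in HFHS_Curcumin minus HFHS from -0.03 to 0.26, Thrsp, Srebf1 and Acacb in HFHS_Calcitriol minus HFHS from -0.39 to 0.49, -0.02 to 0.27 and -0.25 to 0.13, Thrsp and Acacb in HFHS_Curcumin minus CNT from -0.21 to 0.29 and -0.35 to 0.13, Mlxipl in HFHS_Calcitriol minus CNT from -0.28 to 0.15, and Srebf1 in HFHS_Curcumin minus HFHS_Calcitriol from -0.11 to 0.05.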
